A study of Caenorhabditis elegans with 2 samples.

Results

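HMBX-1-GFP regions between convergent protein-coding genes of the early Caenorhabditis elegans embryo were the subject. In such a tail-to-tail gap the gene on the left is read rightwards and the gene on the right is read leftwards, so that both genes end there and neither starts there. A region was a member where its summit lay in such a gap, outside every protein-coding gene body, and more than 250 bp from any tRNA, snoRNA, snRNA, rRNA or miRNA gene. The rule found 1056 members among the 30000 regions of the pooled relaxed list, of which 29978 were nuclear. It used position and gene orientation, and no measured value beyond presence in that list.

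The data came from chromatin immunoprecipitation with sequencing (ChIP-seq) of whole embryos of strain OP656, which is unc-119(tm4063) III and carries the transgene wgIs656. The transgene makes HMBX-1 with a C-terminal GFP-FLAG tag, and embryos were taken 45 min after bleaching of the mothers. The description names an antibody against GFP, while the antibody field names hmbx-1. The 2 biological replicates form 1 group, from pooled male and female embryos of 1 transgenic line. A control without the tagged protein was not analysed here.

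HMBX-1 is the worm relative of human HMBOX1, also named HOT1, a homeobox protein that binds the telomere repeat in human cells. Convergent genes face each other with their poly(A) sites, and the sequence between them holds no promoter of either gene. Worm gaps can also hold short non-coding RNA genes, pseudogenes and blocks of repeated sequence. Telomere repeats also occur in blocks within worm chromosomes.

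Of the 1056 members, 11 were in the authors' thresholded list and are named called below. That is 1.04% (exact 95% interval 0.521 to 1.86), against percent called of 1.39 over all 29978 nuclear regions of the pooled list. The interval of the members' share includes the share of all regions. It also includes the 0.713% of nuclear regions more than 250 bp from a small RNA gene, the like set. No test between classes of regions was made, since regions of the same libraries are not replicates. The sequences of 5 called members are given first, chosen after they had been seen because they hold a repeat or a tRNA box word; others of like signal hold neither. Each is the 50 bp on either side of a summit, on the plus strand of assembly ce11 (RefSeq sequence of the same assembly). Capitals mark 1 repeat unit from the summit on in the first 3, and a 6-base word of the internal tRNA promoter boxes (GTTCGA of the B box or AGTGGT of the A box, on either strand) in the last 2.
Between Y64H9A.2 and C24H10.4, chrX:5056367-5056467: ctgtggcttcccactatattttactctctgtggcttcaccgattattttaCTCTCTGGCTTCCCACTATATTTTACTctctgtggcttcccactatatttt
Between Y55B1BR.8 and Y55B1BR.6, chrIII:445657-445757: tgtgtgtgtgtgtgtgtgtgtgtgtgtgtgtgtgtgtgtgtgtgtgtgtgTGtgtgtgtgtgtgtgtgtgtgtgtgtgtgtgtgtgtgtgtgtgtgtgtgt
Between F18E9.1 and H35N09.2, chrX:8603150-8603250: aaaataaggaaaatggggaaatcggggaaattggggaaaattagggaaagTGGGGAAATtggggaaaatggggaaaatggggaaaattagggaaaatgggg
Between aagr-1 and D2096.7, chrIV:8375521-8375621: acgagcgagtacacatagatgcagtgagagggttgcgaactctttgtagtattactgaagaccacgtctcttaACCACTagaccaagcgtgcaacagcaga
Between mrpl-40 and pat-4, chrIII:89307-89407: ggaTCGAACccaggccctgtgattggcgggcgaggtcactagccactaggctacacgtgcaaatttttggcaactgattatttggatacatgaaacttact

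The signal of a region is the authors' peak-caller value, which orders regions within 1 list. The pooled, replicate 1 and replicate 2 lists have scales of their own. Read depth is unknown. All 11 called members were found in both replicate lists by overlap. The thresholded list was itself made by a procedure that weighs agreement between replicates, so this is no separate check. Of the 1056 members, 1052 were 490 bp wide, and the 4 narrower ones, of 127 to 255 bp, were all called.

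Of the 11 called members, 4 lay on a tandem repeat. A tandem repeat was counted where the 201 bp around the summit matched itself at 70% or more of positions when shifted by 1 period of at most 60 bp, a measure chosen after the sequences had been seen. The strongest member of all lay between Y64H9A.2 and C24H10.4, with a pooled signal of 289.3, 213.3 in replicate 1 and 98.6 in replicate 2. Its unit was 27 bp long, the window matched itself at 74.1% of positions, and its median 25-base word occurred 94 times in the genome. The gap was 13413 bp long, and the summit lay 1743 bp from the nearer gene end.

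The called member between Y55B1BR.8 and Y55B1BR.6 had a pooled signal of 175.1, 90.1 in replicate 1 and 82.5 in replicate 2. It lay on an unbroken run of TG across the 101 bp shown, inside the annotated ncRNA gene Y55B1BR.7. Its median 25-base word occurred 1578 times in the genome. The treatment of reads that match several places is not given in the sources used here, so the part of copy number in these values was not tested.

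Both remaining repeat members lay in the same 1012 bp gap between F18E9.1 and H35N09.2, in a repeat with a 9 bp unit of the kind tggggaaat. The first had a pooled signal of 115.3, 97.1 in replicate 1 and 27.3 in replicate 2. The second had a pooled signal of 99.2, 67.5 in replicate 1 and 34.2 in replicate 2. Their self-match was 75.5% and 81.3%, and their median 25-base word occurred 1 time in the genome. Both were stronger in rank in replicate 1 than in replicate 2. The deposited regions of the pair overlap each other.

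Both called members with a tRNA box word lay in short gaps. The gap between aagr-1, which encodes a relative of acid alpha-glucosidase, and D2096.7 was 350 bp long. Its member had a pooled signal of 284.5, 164.5 in replicate 1 and 126.9 in replicate 2. In rank it stood at 41 in replicate 1 and 23 in replicate 2, so both libraries placed it near the top. A stretch of 30 bp at this summit matched the annotated tRNA gene F11A1.t1 at 86.7% (blastn). It was the only called member with such a match. Over all 1056 members, 4 (0.379%) had one, against 0.226% of the 29162 nuclear regions more than 250 bp from a small RNA gene. By the same distance limit the share was 0.378% in head-to-head gaps, as at the members. It was 0.294% in tandem gaps and 0.155% in gene bodies.

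The gap between mrpl-40, which encodes a protein of the large mitochondrial ribosomal subunit, and pat-4, which encodes the integrin-linked kinase of muscle attachments, was 209 bp long. Its member had a pooled signal of 102.9, 73.7 in replicate 1 and 35.1 in replicate 2. The summit lay 96 bp from the nearer gene end, the shortest such distance among the called members. The window held the B box word but gave no match to an annotated tRNA gene at an E value of 0.001 or less.

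The gap between C30E1.4 and F52G3.8 on the X chromosome held 11 members, the highest number in any gap, and 2 of them were called. The gap was 23880 bp long, and both called summits lay inside the same annotated ncRNA gene, C30E1.9. The first had a pooled signal of 191.1, 75.2 in replicate 1 and 117.3 in replicate 2. The second had a pooled signal of 131.0, 73.2 in replicate 1 and 59.3 in replicate 2. By rank both stood higher in replicate 2, the first at 44 against 256 in replicate 1 and the second at 206 against 275. Neither lay on a tandem repeat, and their median 25-base word occurred 1 time. The weakest of the 11 members of this gap had a pooled signal of 24.98.

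The other 3 called members, with pooled signals between 102.2 and 110.6, had neither a repeat nor a tRNA match. The member between C24H12.4 and C24H12.6 had a pooled signal of 110.6, 65.7 in replicate 1 and 40.1 in replicate 2. Its nearest replicate 1 summit lay 129 bp away, against 3 bp for replicate 2. A neighbouring member of this gap, not called, has the same replicate 1 value, with the summit 73 bp away. The member between irld-55, a gene of the family with insulin and EGF receptor L domains, and Y37A1B.7 had a pooled signal of 103.7, 36.5 in replicate 1 and 57.5 in replicate 2. The member between cav-1, which encodes caveolin, and sna-2, which encodes a protein of the spliced leader particle, had a pooled signal of 102.2, 73.3 in replicate 1 and 30.1 in replicate 2. The irld-55 summit lay in the ncRNA gene Y37A1B.332, 8182 bp from the nearer gene end, the longest such distance among the called. Its ranks were far apart, at 2513 in replicate 1 and 221 in replicate 2, as were those of the first F18E9.1 member, at 148 and 2149, and of the cav-1 member, at 274 and 1463. Across the 11 called members, ranks in the pooled list ran from 32 to 381.

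**Figure D1:**
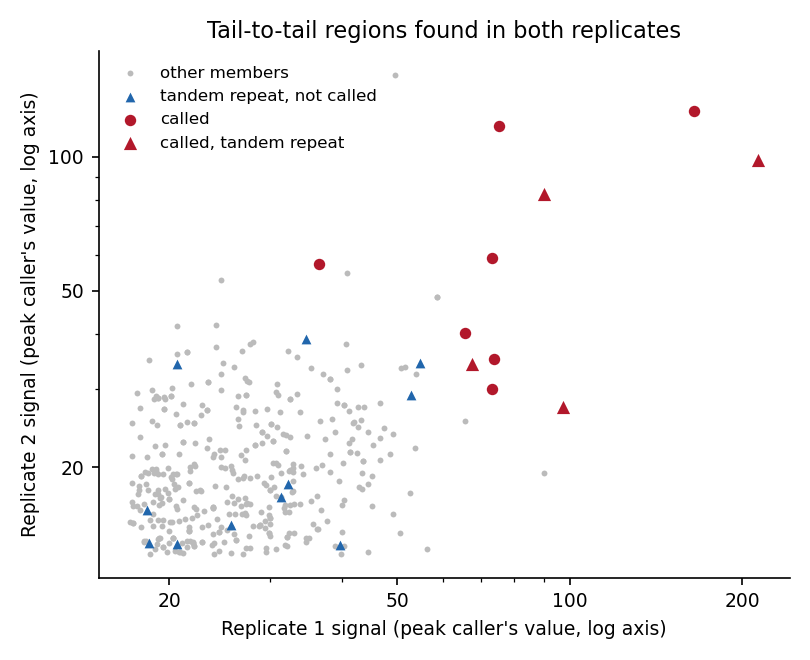
Signal of the 424 members found in both replicates, with replicate 1 on the horizontal and replicate 2 on the vertical log axis, in the peak caller's values. Points are members, red marks the 11 called members, and triangles mark tandem repeats; red points sit above most others on both axes, and the grey point at 153 in replicate 2 is the member near mir-51.

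In the 1056 members as a whole, signal was close to that of the list. Their median pooled signal was 30.9, with quartiles of 25.6 and 40.02, and all nuclear regions had a median of 30.7, with quartiles of 25.6 and 39.1. The highest member that was not called had 91.5, and the lowest called member 99.2. In the thresholded list as a whole the lowest nuclear signal was 95.3. The median of the called members was 115, and that of all 416 called nuclear regions was 134. Of those 416, only 208 lay more than 250 bp from a small RNA gene, as the members do. Outside tandem repeats the median was 110.6 for called members and 117.2 for called nuclear regions by that limit. On tandem repeats it was 145.2 and 145.0.

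Presence in both replicates was also close to that of the list. A total of 424 members (40.2%, exact 95% interval 37.2 to 43.2) overlapped a region of both replicate lists, against 39.6% of all nuclear regions. Another 334 overlapped a region of replicate 1 alone, 181 of replicate 2 alone, and 117 of neither. Across the 424, Spearman's rho between the replicate signals was 0.254, and it was 0.200 over those not called. These are descriptions over regions that share libraries and a control. The share found in both followed the pooled signal, from which the ranks were taken. That signal comes from both replicates together, so the trend is partly built in and is no check of reproducibility. The share was 50 of 50 for the highest members, 121 of 150 for ranks 51 to 200, 138 of 300 for ranks 201 to 500, and 115 of 556 below.

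The 5 strongest members that were not called stood just under the threshold. The member between cyp-13B2, a cytochrome P450 gene, and srg-36, a chemoreceptor gene, had a pooled signal of 91.5, 34.6 in replicate 1 and 38.9 in replicate 2. It lay on a TG repeat at 72.6% self-match, with a 25-base word found 1576 times, and in 2 ncRNA genes on opposite strands that the annotation both names K06G5.6. The member between Y54G11A.14 and ddl-3 had 87.3, with 54.8 in replicate 1 and 34.4 in replicate 2, and lay on a 27 bp repeat at 93.1% self-match. Its 25-base word occurred 1 time, unlike that of the TG repeat.

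The member between alh-3, an aldehyde dehydrogenase gene, and hrg-5, a heme-responsive gene, had a pooled signal of 86.9, 49.5 in replicate 1 and 153 in replicate 2. The matching summit of replicate 2 lay 154 bp away, against 10 bp for replicate 1. This member was the closest to the limit of the rule, at 270 bp from mir-51, a miRNA gene, and it overlapped a thresholded region without being its nearest. The member between gtr-1 and F25E2.2 had 85.2, with 51.5 in replicate 1 and 33.5 in replicate 2. The member beside hif-1, which encodes the hypoxia-inducible factor, and Y44A6D.1 had 85.1, with 50.8 in replicate 1 and 33.4 in replicate 2. Each of these last 2 had its replicate summits within 76 bp of the pooled summit.

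The distance limit took away most of the called summits of these gaps. Another 86 tail-to-tail regions lay within 250 bp of a small RNA gene, and 27 of them (31.4%) were called, with a median signal of 61.8. Of these, 41 lay nearest to a tRNA gene, with 14 called, 20 to a snoRNA gene, with 8 called, 17 to a miRNA gene, with 3 called, and 8 to a snRNA gene, with 2 called. Just outside the rule stood a region with a signal of 71.1 at 234 bp from tRNA gene F56F3.t1, and another with 46.1 at 212 bp from T14F9.t1. A further one, with 22.9, lay 208 bp from tRNA gene Y51H4A.t4. Just inside, after the member near mir-51, stood members with 34.7 at 283 bp and 21.9 at 290 bp from a small RNA gene.

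Members were set beside regions placed elsewhere by the same distance limit. Of regions in head-to-head gaps, where both genes start, 77 of 4228 were called (1.82%, interval 1.44 to 2.27). In tandem gaps, between genes read the same way, 61 of 6473 were called (0.942%, interval 0.722 to 1.21). In gene bodies 59 of 17391 were called (0.339%, interval 0.258 to 0.437). With repeats kept, the tail-to-tail share of 1.04% lay between those of head-to-head and tandem gaps. Over all nuclear regions more than 250 bp from a small RNA gene, 0.713% were called. Without its tandem repeats the tail-to-tail share was 0.682%. The other shares given here keep their repeats. In tandem gaps repeats made up 7 of the 61 called regions and 60 of all 6473. In head-to-head gaps they made up 1 of 77 and 31 of 4228. Over all nuclear regions more than 250 bp from a small RNA gene, they made up 14 of the 208 called and 230 of all 29162. With these left out too, the tail-to-tail share of 0.682% would lie below that of tandem gaps.

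**Figure D2:**
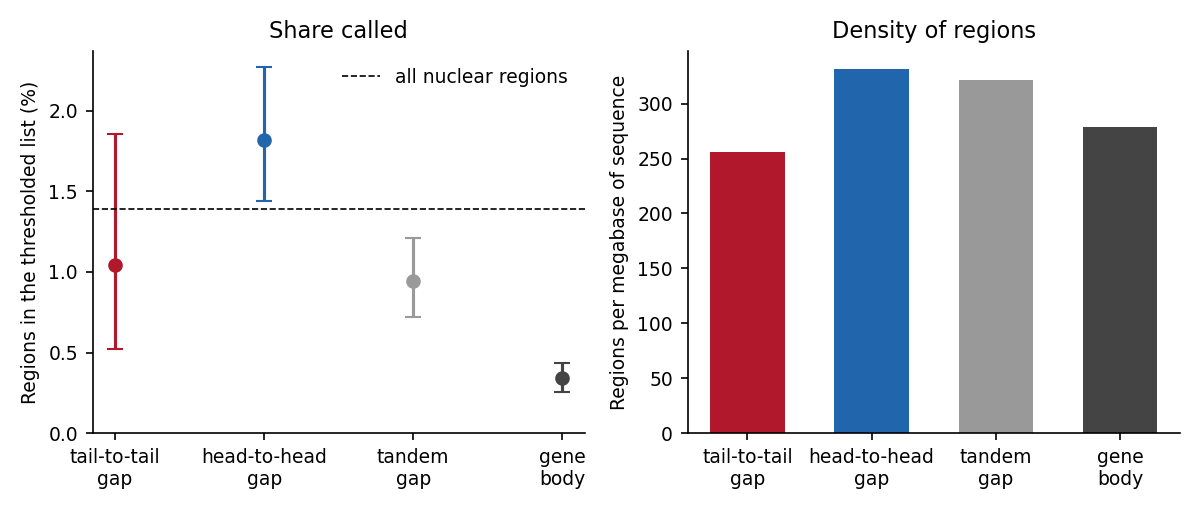
Left, share of regions in the thresholded list (percent) by placement, with exact 95% intervals that cover the counting of regions and the share of all nuclear regions (1.39%) as a dashed line. The placements leave out regions within 250 bp of a small RNA gene, while the line keeps them. Without them the share of all nuclear regions is 0.713%. Right, regions per megabase of sequence, in bars from 0; tail-to-tail gaps have the lowest bar, at 255.6.

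Tail-to-tail gaps held fewer regions per length. The members lay in 4.13 Mb of gap sequence, or 255.6 per Mb, against 332 in head-to-head gaps, 322 in tandem gaps and 279 in gene bodies. Called members came to 2.66 per Mb, against 6.04 in head-to-head gaps, 3.03 in tandem gaps and 0.945 in gene bodies. Tail-to-tail gaps were also richer in repeated sequence: the median 25-base word of a 101 bp window occurred more than 1 time at 26.4% of positions, against 10.7% in head-to-head and 11.99% in tandem gaps. With single-copy regions and single-copy sequence alone, the density was 317 per Mb, against 359 in head-to-head gaps, 352 in tandem gaps and 290 in gene bodies. The order against gene bodies therefore turned with this choice, which was made after the data had been seen.

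Members gathered near gene ends. Their median distance to the nearer gene end was 387 bp, with 526 nearer to the left gene, 529 to the right and 1 at equal distance. Density was 371 per Mb within 100 bp of a gene end, 420 from 101 to 250 bp, 388 from 251 to 500 bp, 238 from 501 to 1000 bp and 150 beyond. In head-to-head gaps the same steps gave 517, 570, 380, 290 and 279 per Mb, and in tandem gaps 428, 450, 376, 310 and 262. Beside starts, head-to-head regions were denser than the members, while from 251 to 500 bp the 3 kinds of gap stood close together. Farther than 500 bp from a gene end, the members' density was 173 per Mb, and 236 per Mb in single-copy sequence, against 307 in both head-to-head and tandem single-copy sequence.

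**Figure D3:**
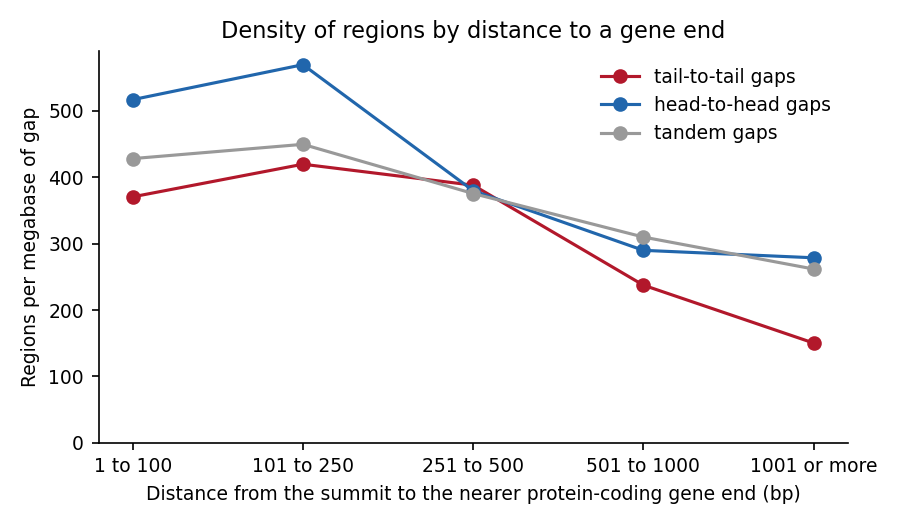
Regions per megabase of gap (vertical axis) by distance from the summit to the nearer protein-coding gene end in bp (horizontal axis), for the 3 kinds of gap, with no error bars. Members run from 371 per Mb within 100 bp to 150 per Mb beyond 1000 bp, under both other kinds at each end of the axis.

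By the same steps, 1 of 170 members was called within 100 bp, 3 of 217 from 101 to 250 bp, 2 of 220 from 251 to 500 bp, 1 of 163 from 501 to 1000 bp and 4 of 286 beyond. In head-to-head gaps the called numbered 17 of 424, 38 of 612, 11 of 535, 9 of 589 and 2 of 2068. Of the 11 called members, 5 lay in gaps longer than 5000 bp, which held 300 members in all. Of the 2711 tail-to-tail gaps, with a median length of 584 bp, 672 (24.8%) held a member. Head-to-head gaps were longer, at a median of 1404 bp, and 46.6% of them held a region.

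Tandem repeats were more frequent at members than in the list as a whole. Of the 1056 members, 30 (2.84%, interval 1.92 to 4.03) lay on a tandem repeat, against 0.767% of all nuclear regions, 0.733% in head-to-head gaps and 0.927% in tandem gaps. The gap sequence itself differed in the same direction. At positions spaced evenly through it, 4.26% of tail-to-tail sequence was repeat, against 1.22% in head-to-head and 1.32% in tandem gaps, so the members' share was below that of the sequence they came from. Among called members the share was 4 of 11 (36.4%, interval 10.9 to 69.2), against 14 of the 208 called nuclear regions more than 250 bp from a small RNA gene (6.73%) and 7 of the 61 called regions of tandem gaps (11.5%). In head-to-head gaps 1 of 77 called regions was a repeat. Of the 4 called members, 2 are the overlapping regions of the gap beside F18E9.1.

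Members on repeats had a median signal of 36.2, and the others 30.7. Of the 50 members of highest signal, 7 (14.0%) were repeats, against 10 of the 556 lowest (1.80%). Of the 5 members with a unit of at most 10 bp, 3 were called, against 1 of the 14 with a unit of 11 to 30 bp and 0 of the 11 with a longer one. The medians of these sets were 99.2, 36.5 and 32.2. Of the 3 called, 2 were the overlapping regions beside F18E9.1, and the median of 99.2 is the signal of 1 of them. These counts by unit length were not made for all nuclear regions. A short unit did not go with a high signal in each case: the member between F02E11.7 and F02E11.3, with an 8 bp unit repeated without a mismatch and a 25-base word found 223 times, had a signal of 24.3 and 25.5 in replicate 1, and was not found in replicate 2. Without repeats, 7 of 1026 members were called, or 0.682%.

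**Figure D4:**
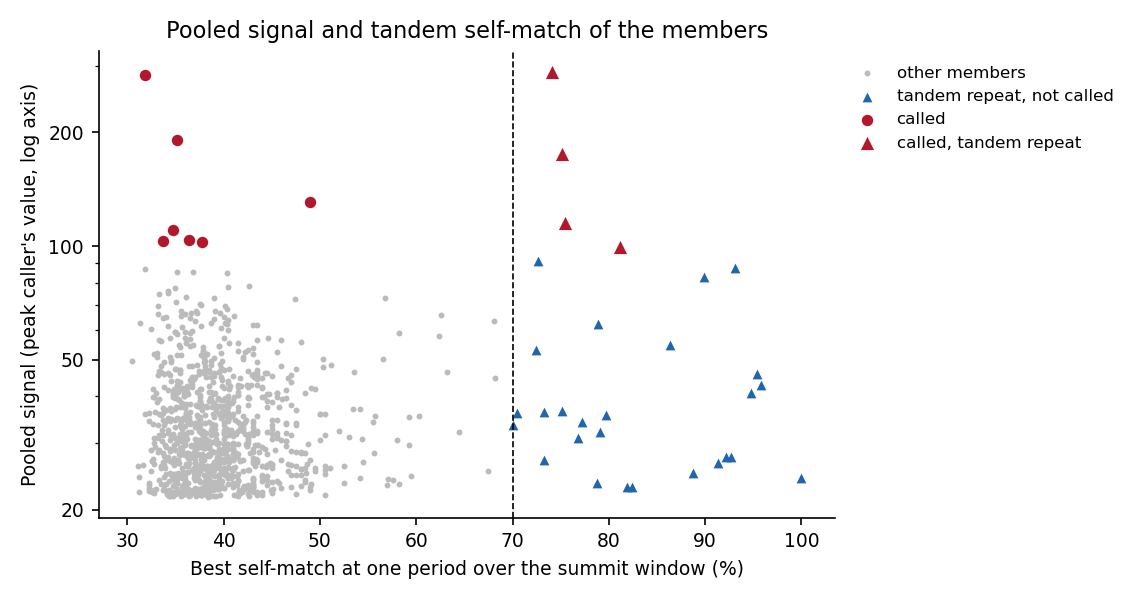
Pooled signal of each of the 1056 members (vertical log axis, peak caller's value) against the highest self-match of its 201 bp window at any period up to 60 bp (horizontal axis, percent). Red marks called members, triangles mark the 30 members past the dashed 70% line, and called members lie on both sides of the line.

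Other words were sought within 50 bp of the summit, on both strands. The poly(A) signal AATAAA was present at 29.7% of members, 28.4% of head-to-head regions, 27.1% of tandem regions and 25.1% of all nuclear regions. It was present at 1 of the 11 called members, against 14.9% of all called nuclear regions. Of called regions of other placement more than 250 bp from a small RNA gene, 19.3% held it. Runs of TTTTTT were at 51.3% of members, 48.8% of all nuclear regions and 24.8% of all called ones, and at 0 of 11 called members, which allows a share of up to 28.5% (upper end of the exact interval). The telomere repeat unit TTAGGC was at 3.22% of members, against 3.47% of all nuclear regions and 4.33% of all called ones, and at 0 of the called members. The word TAGTTA, taken from the motif of human HMBOX1, was at 5.02% of members, against 4.17% of all and 1.68% of all called ones, and also at 0 of the called members. TTGCAA, found at 19.8% of the called regions of other placement and more than 250 bp from small RNA genes, was at 5.49% of members and at 0 of the called ones. GAGAGA was at 5.11% of members and TATAAA at 14.6%, against 6.22% and 13.2% of all nuclear regions. The tRNA box words GTTCGA and AGTGGT were at 3.03% and 3.598% of members, against 3.52% and 3.33% of all nuclear regions, which include those near tRNA genes. By the members' distance limit they were at 3.29% and 2.86% of head-to-head regions. In tandem gaps they were at 3.04% and 2.80%. Each of these words was at 1 of the 11 called members (9.09%, exact interval 0.230 to 41.3). Each was at 6.60% of called regions of other placement more than 250 bp from a small RNA gene. Over all called nuclear regions, which include those near tRNA genes, GTTCGA was at 23.3% and AGTGGT at 17.5%. The interval includes all of these called shares, so the box words do not set the called members apart.

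Base composition went with being called, as elsewhere in the list. Median GC content of the 101 bp window was 32.2% for the members and 33.7% for all nuclear regions. It was 41.6% for the called members and 48.5% for all called nuclear regions, which include those near small RNA genes. Called regions more than 250 bp from a small RNA gene had 44.6%. By that limit called regions had 41.6% in tandem gaps and 45.5% in head-to-head gaps.

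Most members lay on no other annotated gene. Their summits were outside every annotated gene in 930 cases, of which 7 were called. Of 31 summits in ncRNA genes, 4 were called, against a called share of 1.04% over all members, and the median signal of the 31 was 41.7. Of these 4, 2 lay in the same gene, C30E1.9. Of 81 summits in pseudogenes, none was called, which says little at a share of 1.04%, and the median signal was 28.6. A further 7 lay in piRNA genes, 6 in lincRNA genes and 1 in an antisense RNA gene, with none called. These counts were not made for the other placements.

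Gene families whose members end in these gaps were counted by symbol, and none of the 8 lists held a called member. The lists held 2 to 61 members each, and the called share over all members was 1.04%, so a count of 0 says little. Gaps beside histone genes held 8 members in 6 of 30 gaps, with a median signal of 44.7. Gaps beside chaperone genes held 10 members in 7 of 14 gaps, with a median of 42.4, and those beside ribosomal protein genes held 5 in 4 of 26 gaps, with a median of 37.5. Those 3 medians, and that of 32.5 beside collagen genes, were above the 30.9 of all members. Gaps beside ceh homeobox genes held 14 members in 8 of 20 gaps, and beside nuclear hormone receptor genes 27 in 16 of 73 gaps, with medians of 28.1 and 29.4. Gaps beside collagen genes held 7 members in 4 of 37 gaps, beside major sperm protein genes 2 in 2 of 12, and beside serpentine receptor genes 61 in 48 of 270.

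Along the genome, density was lowest on chromosome V, at 177 members per Mb of gap, and 237 on IV. It was 280 on II, 299 on I, 303 on X and 313 on III. Of the called members, 5 lay on X, 3 on IV, 2 on III and 1 on II, with none on I or V, and 4 of the 5 on X came from 2 gaps. Over all nuclear regions, X also held the most called ones, 92 of 4853, and V the fewest, 48 of 5154. The centres of the autosomes, the middle of 3 equal lengths, held 257 per Mb and the arms 243. The direction differed between autosomes. The centre was denser on I, at 439 against 259, and on IV, at 251 against 234. On II, III and V the centres held 242, 294 and 158 per Mb and the arms 291, 321 and 182. After the gap beside C30E1.4, the gaps with the most members were those between T23E1.1 and Y67D8B.1 on IV and between btb-22 and F39E9.6 on II, with 10 each and none called. Their highest signals were 72.7 and 39.1.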

How the data were processed

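Per the labels and file notes, the authors called relaxed lists (peaks together with background regions) per replicate and on both replicates pooled, with 1 control for both, and made the thresholded list by the irreproducible discovery rate procedure. The sources used here do not give the aligner, the peak caller or the threshold. The deposited values are a peak-caller signal per region and a −log10 q value; the latter ran from 2.06 to 2.24 over the called members. Read depth is unknown, and intervals (exact Clopper-Pearson) cover the counting of regions only.

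Summits on ce11 were placed against Ensembl WBcel235 gene models with Python 3.11.15, numpy 2.4.6 and scipy 1.17.1. Called means the relaxed region nearest to a thresholded region's summit, and found in a replicate means an overlap of at least 1 bp. Sequence came from RefSeq, and blastn 2.17.0 compared the 101 bp windows with annotated tRNA genes (word size 7). Evenly spaced positions lay every 50 bp for repeats and every 200 bp for 25-base words. Code was tested on simulated data.

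Genes named are those flanking the called members, the 5 strongest members not called and the 3 fullest gaps, with other genes at those summits. Members and lists were chosen with earlier results of these data known. Measures of tandem repeats, copy number and tRNA similarity, and single-copy densities, were added after the data had been seen.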

Additional observations from a re-analysis of the deposited data

How the results depend on the processing

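No paired analysis was possible because the study has 1 group. Counting members wholly inside the gap gave 674, with 37.1% found in both replicates. Merging overlapping members gave 36.7% found in both and a median signal of 32.0. Requiring an overlap of at least 50% of a region gave 30.1% found in both, and replicate summits within 100 bp gave 17.1%. The 50% of the thresholded list with the highest signal gave a called share of 0.379%. A self-match of at least 80% gave a repeat share of 1.33%, against 0.364% of all nuclear regions, and left 1 called member on a repeat. Leaving out a replicate gave median signals from 16.96 to 23.33, on those lists' own scales. The called share under the other alternatives ran from 0.682% (tandem repeats left out) to 1.80% (any overlap with a thresholded region), and the density from 183 per Mb to 332 per Mb. With 1 list per replicate and no read counts, depth sets no limit that can be given, and members that rest on 1 replicate have no replicate check.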
